A study of Mus musculus with 2 samples.

Results

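Genes that make, carry and break down the inhibitory transmitters GABA and glycine were followed in 2 single cells, together with the homeobox genes Dlx1 and Dlx2 and the calcium-binding protein gene Calb1. The 8 genes were Gad1, Gad2, Abat, Slc32a1, Slc6a9, Dlx1, Dlx2 and Calb1, out of 18194 named genes. Every probe set (the group of probes the array reads as 1 unit) whose only gene symbol was one of these was taken, 18 of 34958 in all. One cell came from the retina of a CD1 mouse on postnatal day 0 (P0), and the other from a CD1 retina on embryonic day 12.5 (E12.5). CD1 is an albino outbred strain, and no mutation or treatment other than the enzymatic dissociation is given for either animal. Both cells carry the label ciliary body, the tissue at the rim of the optic cup, which the submitters gave them from their expression after the arrays were read. The genes were chosen from their signals in these same 2 cells, so their values are a description. In the following, values at P0 and at E12.5 are those of these 2 cells. With 1 cell at each age there is no replicate check, no p-value and no standard error.

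GABA is made from glutamate by the glutamate decarboxylases that Gad1 and Gad2 encode, is loaded into synaptic vesicles by the Slc32a1 transporter, which also loads glycine, and is broken down by the transaminase encoded by Abat. Glycine is cleared from the extracellular space by the transporter encoded by Slc6a9. In the retina these genes are best known from amacrine and horizontal cells, the inhibitory interneurons, and Calb1 marks horizontal cells and some amacrine and ganglion cells. Dlx1 and Dlx2 encode related homeodomain factors that act in newly born retinal neurons, and in the mouse forebrain they drive GABAergic fate and expression of the Gad genes.

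The stretches before the start sites are shown for Gad2, a known target of Dlx factors in mouse, and for Dlx2 and Slc6a9, which were higher at P0, so that homeodomain motifs in them can be seen. RefSeq windows on GRCm38.p6 matched 6 of the 8 genes, all but Abat and Calb1, and gave 8 windows because Slc6a9 has 3 start sites. Each sequence covers the 250 bases before a start site, 5′ to 3′ in the direction of the gene. Capitals mark TAATTG in Slc6a9 and GGGCGG, read from the opposite strand as CCGCCC, in Dlx2. The Gad2 window holds neither motif.
Gad2, chr2:22622077-22622326, + strand: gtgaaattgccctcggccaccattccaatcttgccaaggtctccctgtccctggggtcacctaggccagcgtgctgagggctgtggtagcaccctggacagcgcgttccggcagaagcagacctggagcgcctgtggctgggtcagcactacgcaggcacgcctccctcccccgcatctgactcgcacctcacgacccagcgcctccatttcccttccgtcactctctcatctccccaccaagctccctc
Dlx2, chr2:71546755-71547004, - strand: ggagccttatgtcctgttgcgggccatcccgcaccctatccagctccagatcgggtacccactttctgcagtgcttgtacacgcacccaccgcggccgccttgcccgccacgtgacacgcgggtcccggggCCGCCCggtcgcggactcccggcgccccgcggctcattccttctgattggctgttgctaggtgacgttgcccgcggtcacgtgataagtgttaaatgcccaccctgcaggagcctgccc
Slc6a9, second start site, chr4:117849100-117849349, + strand: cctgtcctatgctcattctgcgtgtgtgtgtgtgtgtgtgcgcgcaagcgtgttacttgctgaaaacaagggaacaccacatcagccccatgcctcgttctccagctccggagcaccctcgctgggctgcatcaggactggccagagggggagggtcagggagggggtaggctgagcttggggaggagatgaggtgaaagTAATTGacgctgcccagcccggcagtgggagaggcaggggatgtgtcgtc
A homeodomain core, searched as TAATTA or TAATTG on both strands, occurred in 1 of the 8 windows, at the second start site of Slc6a9, where its first base lies at position -50 from the start site. It occurred in 11.3% of all 32851 RefSeq windows of the same length. The GC box GGGCGG, on both strands, occurred in 3 of the 8 windows, those of Gad1, Dlx2 and the first start site of Slc6a9, and in 32.7% of all windows. The TATA motif TATAAA, on both strands, occurred in the window of Gad1 and in 12.4% of all windows. TAATTA reads the same on both strands and was counted once, and no matches overlapped. The windows of the 6 genes held 8 to 24 CpG dinucleotides, against a median of 6 over all windows. These matches describe letters in a window and do not show binding.

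Signals are MAS5 values on a linear scale, scaled on each array by the authors. A signal was read as above background when it exceeded the 99th percentile of 192 probe sets for gene families not known to act in the eye, such as olfactory receptors and keratin-associated proteins. This limit was 344.5 at P0 and 244.6 at E12.5. A gene was called higher in a cell when it was above the limit there and differed by 4-fold or more, after each signal below its limit had been raised to it. A fold with the dimmer cell below its limit is therefore a lower bound, written "at least". The limit is lower at E12.5, so a gene dark in the other cell is called at a lower signal at P0 than at E12.5. Where a gene has several probe sets, the one whose log2 signals averaged highest over both cells stands for it.

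Of the 8 genes, 5 were above background at P0, where 28.4% of all named genes were, and 3 at E12.5, where 30.5% were. Gad2 and Slc6a9 were above it in both cells, a state shared by 18.8% of genes. Gad1 and Dlx1 were above it in neither, as were 59.8% of genes. The P0 cell had 4 of the 8 at 4-fold or more above the E12.5 cell, namely Abat, Slc6a9, Dlx2 and Calb1, against 9.38% of all genes. The E12.5 cell had 0 of the 8 higher, against 7.33% of all genes. The median log2 ratio of P0 over E12.5 was 2.99 for the 6 genes above background in at least 1 cell, and 0.02 for the 7307 genes of the whole array in that state. These counts and the median follow from how the genes were chosen. By probe set, 6 of the 18 were above background at P0, against 22.4% of all probe sets with a single symbol, and 3 at E12.5, against 24.3%. A total of 5 of the 18 were higher at P0 by 4-fold or more, against 7.36% of all probe sets, and 0 at E12.5, against 5.72%.

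**Figure D1:**
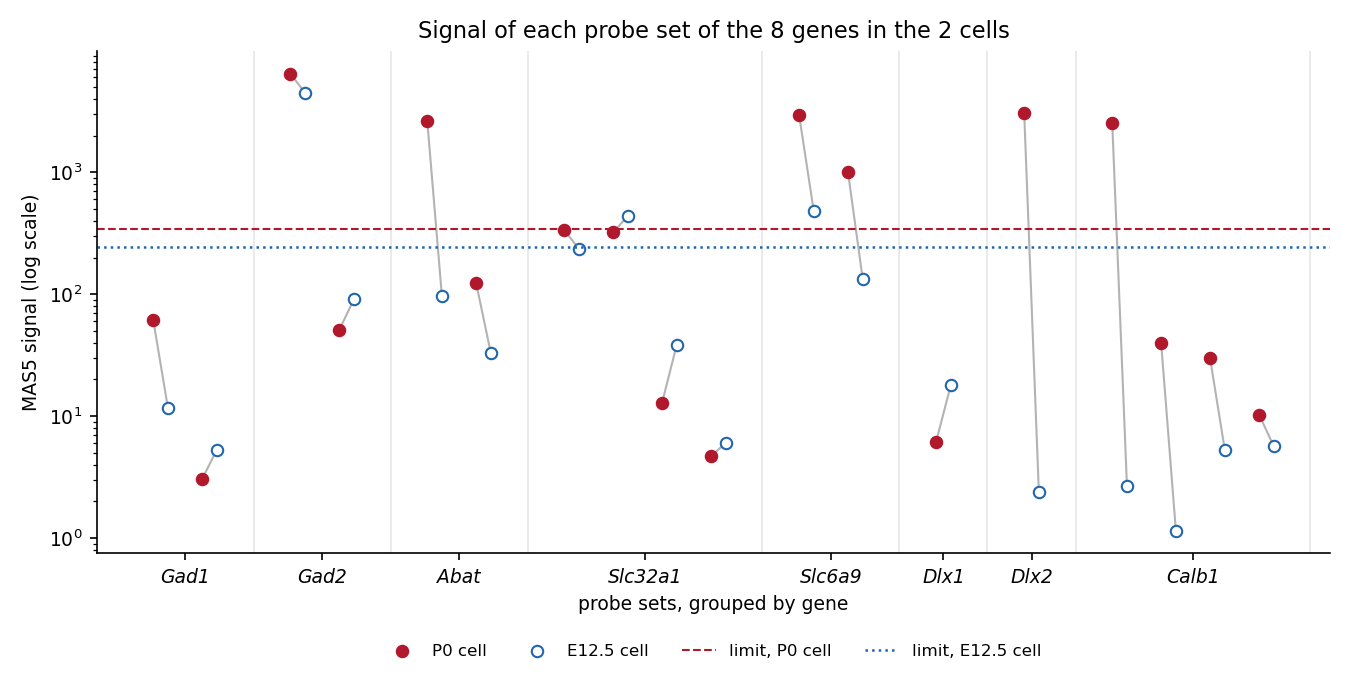
MAS5 signal (log scale) of each of the 18 probe sets, grouped by gene, with the P0 cell as filled red points and the E12.5 cell as open blue points joined by a line. The dashed and dotted lines are the background limits of 344.5 and 244.6, and 11 probe sets lie below their limit in both cells.

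Of the 2 decarboxylase genes, only Gad2 was read, and only by 1 of its 2 probe sets. Probe set 1429589_at of Gad2 had a signal of 6459 at P0 and 4515 at E12.5, which is 18.7 times the limit at P0 and 18.5 times that at E12.5. These signals stood at the 97.1st percentile of all probe sets at P0 and the 95.1st at E12.5. The ratio of P0 over E12.5 was 1.43, well under 4-fold. Its direction depends on the processing, since the ratio was 0.784 when the arrays were scaled to their hybridisation spike-ins instead of by MAS5, and 0.894 with the mean log2 signal over both probe sets. The other probe set of Gad2, 1421978_at, had 50.7 at P0 and 90.7 at E12.5, below both limits and with the opposite order. Such a split is common here: among 2403 genes above both limits with further probe sets, 32.8% had every further probe set below both limits. Gad1, which encodes the decarboxylase made throughout the neuron, had 61.4 and 3.05 at P0 by its 2 probe sets, against 11.7 and 5.28 at E12.5. All of these Gad1 signals lay within the range of the background genes. Transcripts of a single cell can be missed at reverse transcription, so a signal below background does not show that the gene was silent.

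Abat was read at P0. Its probe set 1433855_at had a signal of 2657 there, against 96.1 at E12.5, which was below the limit. The signal was at least 10.9-fold higher at P0, or at least 5.96-fold with spike-in scaling. The second probe set, 1422226_at, had 123 at P0 and 32.8 at E12.5, the same order but below both limits. When the mean log2 signal over both probe sets stood for the gene, its ratio came to 2.34-fold, and the call was lost.

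Slc32a1, the vesicular transporter gene, lay at the edge of background in both cells. The probe set that stands for it, 1447574_s_at, had 322 at P0, under the limit of 344.5, and 438 at E12.5, above the limit of 244.6. Probe set 1456457_at had 335 at P0 and 236 at E12.5, just under the limit in each. The order of the cells was therefore opposite in these 2 probe sets, and both differences were under 2-fold. The other 2 probe sets had 12.9 and 4.67 at P0 and 38.5 and 6.05 at E12.5, all below the limits.

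Slc6a9, the gene of the glycine transporter GlyT1, was the only 1 of the 8 with 2 probe sets called in the same direction. Probe set 1417636_at had 2949 at P0 and 480 at E12.5, above background in both, a 6.14-fold difference. Probe set 1431812_a_at had 999 at P0 and 133 at E12.5, where it was below the limit, so it was at least 4.08-fold higher at P0. Of the 3 called genes with further probe sets (Abat, Slc6a9 and Calb1), 1 had a further probe set called as well, while 29.4% of the 1161 such genes higher at P0 did. With spike-in scaling the difference of Slc6a9 became 3.37-fold, below the size called.

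Dlx2 was read at P0 and Dlx1 in neither, although Dlx2 is the next protein-coding gene after Dlx1 in the RefSeq annotation. Dlx2, with the single probe set 1448877_at, had a signal of 3074 at P0 and 2.37 at E12.5. The P0 signal was 8.92 times its limit, while the E12.5 signal was lower than that of most background probe sets, 8.33% of which were dimmer. The difference was at least 12.6-fold, or at least 6.89-fold with spike-in scaling. Dlx1, also with a single probe set, 1449470_at, had 6.16 at P0 and 17.9 at E12.5, both within background. The other 4 genes of the Dlx family, Dlx3 to Dlx6, ranged from 18.3 to 76.3 at P0 and from 40.4 to 163 at E12.5, all below the limits.

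Calb1, which encodes the calcium buffer calbindin, was read at P0 by 1 of its 4 probe sets. Its probe set 1417504_at had 2526 at P0 and 2.69 at E12.5, at least 10.3-fold higher at P0, or at least 5.66-fold with spike-in scaling. The 3 further probe sets of Calb1 were below background in both cells, at 10.3 to 39.4 at P0 and 1.15 to 5.66 at E12.5. Each of them was brighter at P0, which below background carries no weight. With the mean over its 4 probe sets, Calb1 fell below the limit in both cells.

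**Figure D2:**
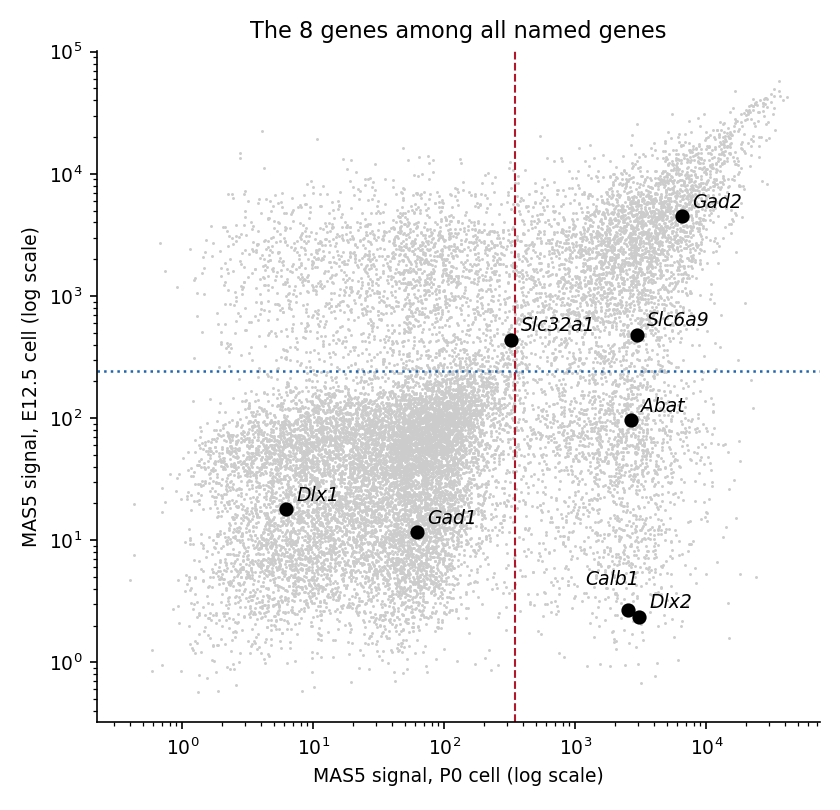
Signal at P0 against signal at E12.5, both on log scales, for all 18194 named genes (grey) and the 8 genes (black). Gad2 lies among genes bright in both cells, Abat, Calb1 and Dlx2 right of the P0 limit (dashed) and below the E12.5 limit (dotted), and Dlx1 and Gad1 below both.

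The genes whose pairs of signals lay closest to those of the 8 were found by the distance between the 2 log2 signals, a likeness that rests on 2 cells only. Arl2bp and Tpm4 were nearest to Gad2, Zfand5 and Fam210a to Slc6a9, and Specc1 and the pseudogene Ppp4r1l-ps to Abat. Kpna4 and Cog6 were nearest to Dlx2, and Nr1d2 and Cd200 to Calb1. The distances were 0.02 to 0.21 on the log2 scale.

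Some gene lists around the 8 covered GABA and glycine metabolism, carriers, receptors, synapse scaffold and chloride transport. Others covered Dlx factors and their partners, interneuron genes, EF-hand calcium-binding proteins and neuronal differentiation. All lists together hold 172 measured genes besides the 8. Of these, 38 were above background at P0 and 39 at E12.5, smaller shares than the 28.4% and 30.5% of all genes. A total of 20 were higher at P0 and 12 at E12.5, 11.6% and 6.98% of them, close to the 9.38% and 7.33% of all genes. With spike-in scaling the order turned round, with 12 higher at P0 and 16 at E12.5, against 5.98% and 11.7% of all genes. The 8 genes that lost the call at P0 were Glud1, Glrb, Nlgn2, Slc12a7, Slc4a3, Ebf3, Ncs1 and Calu, and the 4 that gained one at E12.5 were Slc38a1, Slc38a2, Gabbr1 and Syt1. The median log2 ratio of the 55 above background in at least 1 cell was 0.33, against 0.02 for all genes in that state. For 15 of the 20 and 11 of the 12 the fold is a lower bound. Of 17 of the 20 with further probe sets, 3 had one that was also called higher at P0, and 1, Glud1, had one called the other way. Of 6 of the 12 with further probe sets, Meis1 had one called in the same direction and Meis2 one called the other way.

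**Figure D3:**
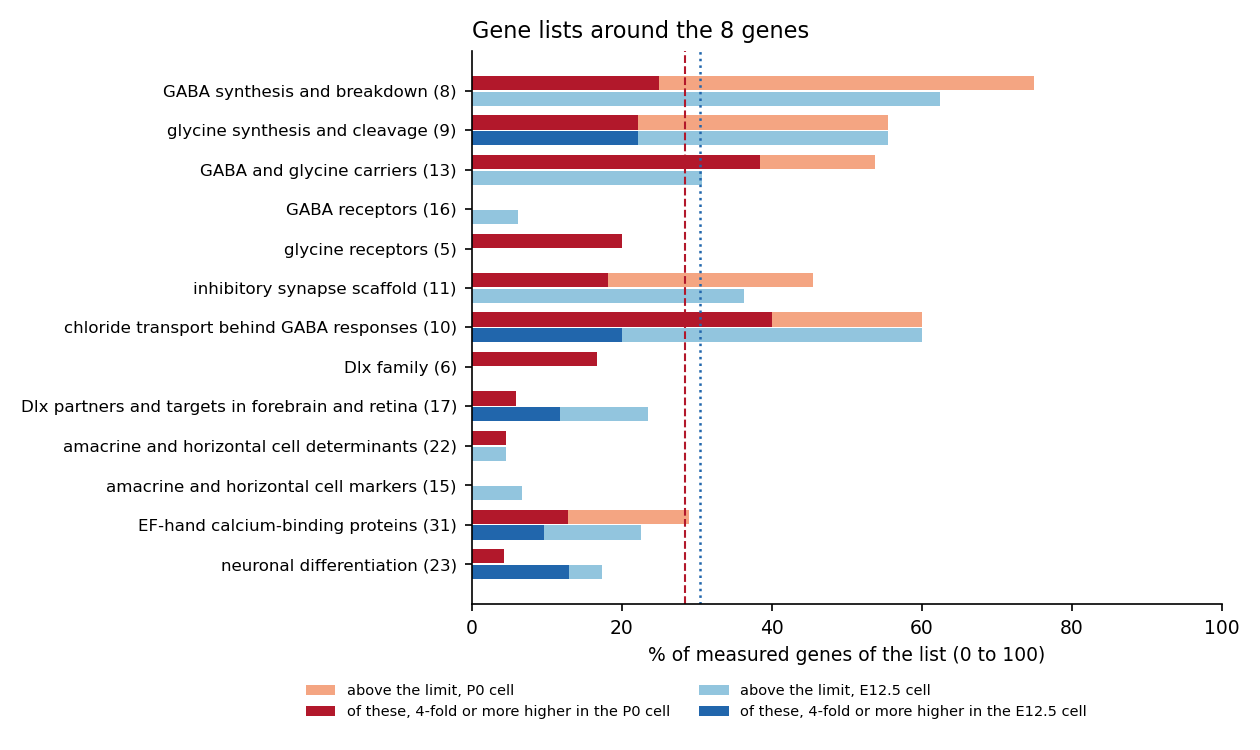
Share of the measured genes of each list (number in brackets, the 8 genes included) above the limit, with the part that was 4-fold or more higher in dark colour, for the P0 cell (red, upper bar) and the E12.5 cell (blue, lower bar). The dashed and dotted lines are the shares of all named genes above the limit, 28.4% and 30.5%, and the bars of the GABA receptor, Dlx and interneuron lists stay below them.

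GABA metabolism beyond the decarboxylases was read in both cells. Of 5 other measured genes of synthesis and breakdown, 4 were above background in each cell, against 28.4% of all genes at P0 and 30.5% at E12.5. A total of 1 was higher at P0 and 0 at E12.5, against 9.38% and 7.33%. Aldh9a1, an aldehyde dehydrogenase of the route from putrescine to GABA, had 6208 at P0 and 4951 at E12.5. Pdxk, whose product makes the cofactor of the decarboxylases, had 1811 at P0 and 1052 at E12.5. Glud1, encoding glutamate dehydrogenase, was 4.03-fold higher at P0 by the probe set that stands for it, or 2.21-fold with spike-in scaling, and at least 4.43-fold higher at E12.5 by its second. Aldh5a1, whose product completes GABA breakdown after Abat, was below background in both, with 7.8 at P0 and 2.63 at E12.5.

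Glycine metabolism was split between the cells. Of 9 measured genes, 5 were above background in each cell, against 28.4% of all genes at P0 and 30.5% at E12.5. A total of 2 were higher at P0 and 2 at E12.5, against 9.38% and 7.33%. These counts stayed at 2 and 2 with spike-in scaling, against 5.98% and 11.7%. The cytosolic serine hydroxymethyltransferase gene Shmt1 was at least 7.66-fold higher at P0, with a second probe set at least 11.7-fold higher. The mitochondrial form, Shmt2, was at least 6.17-fold higher at E12.5. Both enzymes interconvert serine and glycine. Of the glycine cleavage system, Gldc was read in both cells at 9336 at P0 and 4206 at E12.5. Its partner Dld was at least 12.1-fold higher at P0 by 1 of its 2 probe sets, and Gcsh at least 7.6-fold higher at E12.5.

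Carriers were called in the P0 cell. Of 11 measured carriers of GABA, glycine, taurine or glutamine besides Slc32a1 and Slc6a9, 6 were above background at P0 and 2 at E12.5. The shares of all genes above background were 28.4% and 30.5%. A total of 4 carriers were higher at P0 and 0 at E12.5, against 9.38% and 7.33% of all genes. With spike-in scaling 4 were higher at P0 and 2, Slc38a1 and Slc38a2, at E12.5, against 5.98% and 11.7%. The GABA transporter gene Slc6a11 (GAT3), known from astrocytes, had 5179 at P0 and 12.4 at E12.5. It was at least 21.2-fold higher at P0, by 1 of its 2 probe sets. The taurine transporter gene Slc6a6 was at least 24.9-fold higher there, with a second of its 4 probe sets called too. The glutamine transporter genes Slc38a5 and Slc38a3 had 14971 and 3417 at P0, against 1.57 and 88.7 at E12.5. This puts Slc38a5 at least 61.2-fold and Slc38a3 at least 14.0-fold higher at P0. The second probe set of Slc38a3 was below background in both cells. Slc38a1 and Slc38a2, amino acid transporters that supply neurons with glutamine, were read in both cells and differed by 3.24-fold and 3.42-fold, higher at E12.5. The second probe set of Slc38a1 had the opposite order, at least 7.62-fold higher at P0. That of Slc38a2 had 36.3 at P0 and 1804 at E12.5, at least 5.24-fold higher at E12.5. The 5 remaining carriers, the neuronal glycine transporter gene Slc6a5 among them, were below background in both cells.

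More glial markers were read at P0 than at E12.5. Of 11 glial genes, 8 were above background at P0 and 4 at E12.5, against 28.4% and 30.5% of all genes. The 4 at E12.5, Glul, Slc1a3, Clu and Vim, were also above background at P0. Their summed signals were 68649 at P0 and 43172 at E12.5. A total of 4 were higher at P0 (Rlbp1, S100b, Car2 and Gfap) and 0 at E12.5, against 9.38% and 7.33%. Gfap was called by 1 of its 3 probe sets, at 1073 at P0. With spike-in scaling, where the E12.5 limit is 446, Gfap was under 4-fold and its call was lost. Slc1a3 (3.11-fold) and Clu (2.14-fold) were brighter at P0 but not called, and Vim had 27525 at P0 and 29725 at E12.5. Glul had the opposite order, with 5024 at P0 and 8569 at E12.5, under 4-fold apart. Its second probe set was at least 5.48-fold higher at E12.5. The defining glial genes Aqp4, Kcnj10 and Apoe were below background in both. Any part of glial genes in the signals of the carriers was not tested.

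Few receptors for the transmitters were read, while 28.4% of all genes were above background at P0 and 30.5% at E12.5. None of 15 measured subunits of ionotropic GABA receptors was above background in either cell, with signals from 1.3 to 111 at P0 and from 3.13 to 172 at E12.5. Gabbr1, a subunit of the metabotropic GABA receptor, had 100.4 at P0 and 851 at E12.5, and was at least 2.47-fold higher at E12.5, or at least 4.5-fold with spike-in scaling. The glycine receptor subunit Glrb had 1201 at P0 and 24.5 at E12.5, at least 4.91-fold higher at P0, or at least 2.69-fold with spike-in scaling. Its second probe set was below background in both cells. The 4 alpha subunits, which bind glycine, were below background in both cells.

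Of 11 scaffold genes of inhibitory synapses, 5 were above background at P0 and 4 at E12.5, against 28.4% and 30.5% of all genes. A total of 2 were higher at P0 and 0 at E12.5, against 9.38% and 7.33%. With spike-in scaling 1 was higher at P0 and 0 at E12.5, against 5.98% and 11.7%. Gphn, encoding gephyrin, which anchors glycine and GABA receptors, was at least 9.43-fold higher at P0 by 1 of its 3 probe sets. Nlgn2, encoding the adhesion protein neuroligin 2, had 3989 at P0 and 772 at E12.5, 5.17-fold higher at P0, or 2.83-fold with spike-in scaling. Gabarap had 5592 at P0 and 6965 at E12.5, under 4-fold apart.

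The chloride carriers that set whether GABA excites or inhibits a cell differed in opposite directions. Slc12a5 (KCC2), which extrudes chloride and is known from mature neurons, had 2983 at P0 and 8.37 at E12.5, at least 12.2-fold higher at P0. Its second probe set was below background in both cells, at 107 at P0 and 111 at E12.5. Slc12a2 (NKCC1), which loads chloride and prevails in young neurons and secretory epithelia, had 69.2 at P0 and 2734 at E12.5, at least 7.94-fold higher at E12.5. Of its 3 probe sets, 1 was called. In the list of 10 genes, 4 were higher at P0 and 2 at E12.5, against 9.38% and 7.33% of all genes. With spike-in scaling 2 were higher at P0 and 2 at E12.5, against 5.98% and 11.7%. Those at P0 included the potassium-chloride cotransporter genes Slc12a4 (at least 10.4-fold) and Slc12a7 (4.45-fold, or 2.44-fold with spike-in scaling). Slc4a3 was also higher at P0, at least 4.9-fold, or at least 2.69-fold with spike-in scaling. The second gene called at E12.5 was Wnk3, a kinase gene that regulates such carriers, at least 12.8-fold higher there.

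**Figure D4:**
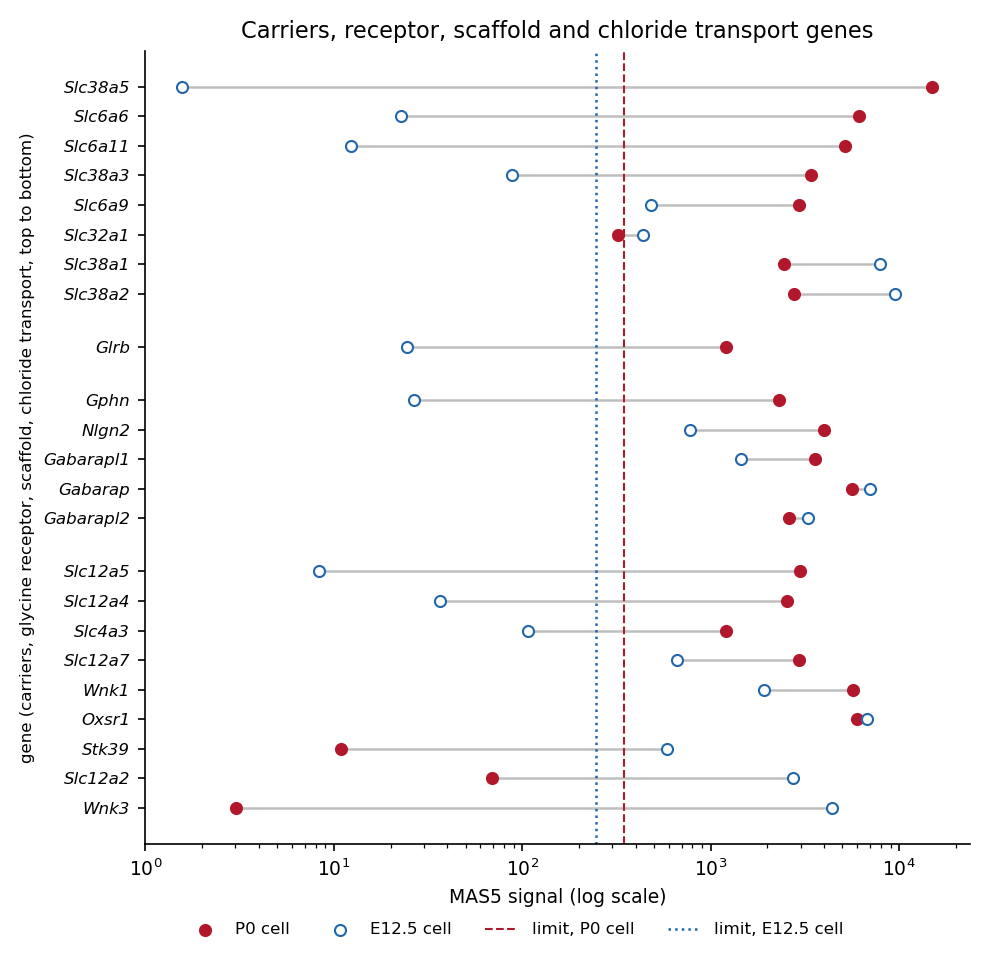
MAS5 signal (log scale) of genes above the limit in at least 1 cell from the lists of carriers, glycine receptors, synapse scaffold and chloride transport, with the P0 cell as filled red points and the E12.5 cell as open blue points. Slc38a5, at 14971 at P0, and Slc12a5 lie below the E12.5 limit at E12.5, while Slc12a2 and Wnk3 show the reverse.

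Few partners and targets of Dlx factors were read. Of 17 measured genes, 1 was above background at P0 and 4 at E12.5, against 28.4% and 30.5% of all genes. A total of 1 was higher at P0 and 2 at E12.5, counts near the 9.38% and 7.33% of all genes. Ntrk2, which encodes a neurotrophin receptor, was 58.3-fold higher at P0, at 17523 against 300.3 at E12.5, and 4 of its 8 probe sets were called in that direction. The homeobox gene Meis1 was at least 22.5-fold higher at E12.5, with 2 of 3 probe sets called. Meis2, known as a partner of Dlx factors in mouse olfactory neurogenesis, was at least 13.4-fold higher at E12.5 by the probe set that stands for it, and at least 5.15-fold higher at P0 by another.

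Few genes of the interneurons that use these transmitters were read, against 28.4% of all genes at P0 and 30.5% at E12.5. Of 22 amacrine and horizontal cell determinants, 1 was above background at P0 (Ebf3, 1041) and 1 at E12.5 (Rorb, 657). The determinants Ptf1a, Foxn4, Prox1, Onecut1 and Lhx1 were below the limit in both cells, with Foxn4 highest at 245 at P0. Of 15 further markers of these cells, 0 were above background at P0 and 1, Sst, at E12.5, at 258, just over the limit. Of 23 genes of neuronal differentiation, 1 was above background at P0 and 4 at E12.5. The microtubule-associated protein gene Map2 was at least 45.1-fold higher at P0 by 1 of its 4 probe sets. Tubb3 (at least 11.0-fold), Vamp2 (at least 7.09-fold) and Gap43 (at least 4.23-fold) were higher at E12.5. That few neuronal genes were read was a condition on which the cells were set apart, and the counts depend on that choice.

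Beside Calb1, 30 other EF-hand calcium-binding protein genes were measured. Of these, 8 were above background at P0 and 7 at E12.5, against 28.4% and 30.5% of all genes. A total of 3 were higher in each cell, against 9.38% of all genes at P0 and 7.33% at E12.5. With spike-in scaling 1 was higher at P0 and 3 at E12.5, against 5.98% and 11.7%. Calb2 and Pvalb, the other calcium buffers commonly used as interneuron markers, were below background in both cells. In the P0 cell, Rcn3 was at least 44.6-fold, Ncs1 at least 5.32-fold and Calu 4.93-fold higher. With spike-in scaling Ncs1 was at least 2.92-fold and Calu 2.71-fold higher. In the E12.5 cell, Sdf4 was 16.3-fold (by 1 of its 3 probe sets), Necab2 at least 12.8-fold and Efhd1 at least 6.88-fold higher. Rcn3, Calu and Sdf4 encode proteins of the secretory pathway.

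Of 20 ciliary margin genes, 8 were above background at P0, 9 at E12.5 and 6 in both. The shares of all genes were 28.4%, 30.5% and 18.8%. The label of the cells was given from their expression on these arrays, so these counts cannot support it. A total of 2 were higher at P0 and 5 at E12.5, against 9.38% and 7.33% of all genes. Among those higher at E12.5, Otx1, Gja1 and Mecom were below background at P0. Of 14 retinal progenitor genes, 10 were above background in each cell. Of these 14, 2 were higher at P0 (Lhx2 and Nr2e1) and 5 at E12.5 (Pax6, Hes1, Fgf15, Sfrp2 and Ccnd1). The shares of all genes were 9.38% and 7.33%. Sfrp2 was 38.4-fold and Pax6 15.4-fold higher at E12.5, and Lhx2 was 7.28-fold higher at P0. Photoreceptor genes (0 of 13), microglial genes (0 of 11) and erythroid genes (0 of 5) were below background in both cells. Of 11 mesenchymal genes, 2 were above background at P0 and 0 at E12.5, of 14 ganglion cell genes 3 at P0 and 1 at E12.5, of 15 pigment cell genes 0 at P0 and 2 at E12.5, of 11 vessel genes 1 at P0 and 0 at E12.5, and of 15 lens genes 1 in each.

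**Figure D5:**
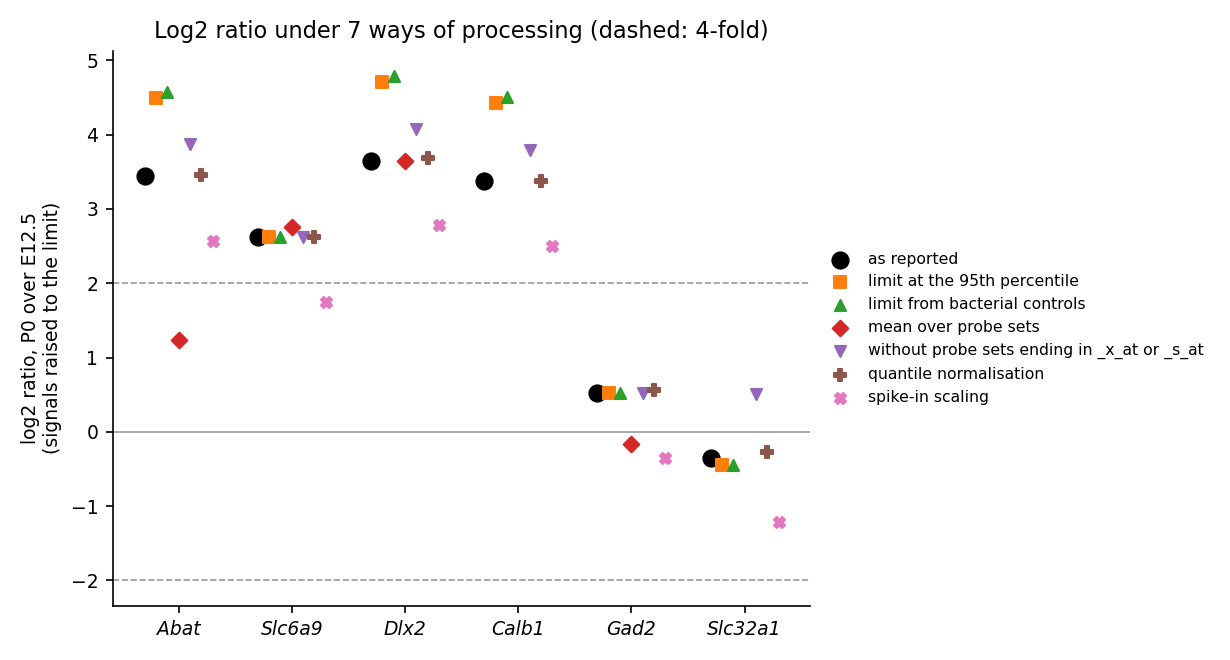
Log2 ratio of P0 over E12.5, after raising signals to the limit, of the 6 genes above background in at least 1 cell, as reported (black) and under 6 other ways of processing, with dashed lines at 4-fold. Dlx2 and Calb1 stay above the line wherever they are plotted, with no point for Calb1 under the mean over probe sets, where it was below both limits. Abat falls under the line with the mean over probe sets and Slc6a9 with spike-in scaling.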

How the data were processed

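Each of the 2 cells was read on its own Affymetrix array of 45101 probe sets. Per the labels' protocols, cDNA primed at the poly(A) tail was amplified by PCR, which favours the 3′ ends of transcripts. The authors used MAS5 to make the deposited signal intensities, which are linear, per the submitters' processing notes. MAS5 scales each array on its own, and the mean signal without 2% at each end was 500.0 in both arrays. MAS5's version and settings are not named in those notes, and no detection calls were used. The number of arrays limits the precision.

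GEO's annotation of the platform gave a single symbol to 34958 probe sets, several to 932 and none to 9211. Symbols of 34754 were updated by gene identifier through RefSeq (GRCm38.p6), and 204 kept the platform's name. Limits, calls and ratios were computed in Python 3.11.15 with numpy 2.4.6 and pandas 2.3.3. The limit of each array rests on the few brightest of the 192 background probe sets, 2 of which exceed it in each array. Raising signals to the limit understates the fold of a gene that is dim in 1 cell. Genes named are the 8, list members above either limit (those past 4-fold first, then by size of ratio), list genes below the limits given as values, and the 2 nearest genes by distance. The members and lists were chosen with earlier results of these data known. The calling rule was tested on simulated data, which checks the code and does not bear on how sound the calls of these cells are. Alternatives covered the limit, the probe set used, the scaling, low signals and the size called.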

Additional observations from a re-analysis of the deposited data

How the results depend on the processing

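Across the alternatives the 4 genes called at P0 kept a positive ratio wherever they had one, and none of the 8 was called higher at E12.5 under any of the alternatives run. Calls among the 8 at P0 numbered 4, but 2 with the mean over probe sets (Slc6a9 and Dlx2), 3 with spike-in scaling and 5 without filter and floor, where Gad1, below both limits, is counted. Slc32a1 was above both limits under the limits from the 95th percentile and from bacterial controls, and without cross-hybridising probe sets, where its ratio turned to a log2 value of 0.51, and below both with the mean over probe sets. The log2 ratio of Gad2, 0.52, became -0.35 with spike-in scaling and -0.16 with the mean over probe sets. The log2 ratio of Dlx2 was 2.78 with spike-in scaling, 4.79 with the limit from bacterial controls, 5.90 with a pseudocount of 50 and 10.34 without filter and floor.

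Among the 172 other genes of the lists, those above background numbered 58 at P0 and 59 at E12.5 with the limit from bacterial controls, and 23 at P0 with the mean over probe sets. Those higher at P0 numbered 5 with the mean over probe sets, 12 with spike-in scaling and 39 without filter and floor, against 20 as reported. Those higher at E12.5 numbered 7 with the mean over probe sets, 16 with spike-in scaling and 41 without filter and floor, against 12 as reported. Over all named genes, 1707 were called higher at P0 and 1333 at E12.5, a share of 56.2% for the P0 cell. The share became 33.8% with spike-in scaling (1088 at P0 and 2127 at E12.5). It was 50.2% with the limit from the 95th percentile, 50% with that from bacterial controls and 50.7% without cross-hybridising probe sets. With a pseudocount of 50 it was 50.4%, without filter and floor 48.8% and at 2-fold 52.1%. It was 55.4% both with the mean over probe sets and with quantile normalisation. Spike-in scaling shifted the median log2 ratio of genes above both limits to -0.85. The calls were 876 at P0 and 706 at E12.5 with the mean over probe sets, and 3924 at P0 and 4115 at E12.5 without filter and floor. Those higher at E12.5 were 2004 with the limit from bacterial controls, 2061 with a pseudocount of 50 and 2287 at 2-fold. Those higher at P0 under the same settings were 2006, 2092 and 2488. The number above background at P0, 5173, became 7909 with bacterial controls and 3204 with the mean over probe sets. The limits of 344.5 at P0 and 244.6 at E12.5 let a gene dark in the other cell be called at a lower signal at P0. The limits at P0 and E12.5 were 105 and 118 at the 95th percentile, and 93.9 and 111 from bacterial controls. They were 181 and 182 without cross-hybridising probe sets, and 354 and 236 with quantile normalisation. How much of the shifts comes from the limits was not tested. No paired analysis was possible because each age has 1 cell, and leaving out a cell leaves no comparison. The SD of the log2 ratio between probe sets of a gene was 0.83 where both cells exceeded the limit (981 genes), which contains no variation between cells.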
